A study of Homo sapiens with 15 samples.

Results

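The genes described here are 38 genes of the lysosome and of autophagy, listed by name and grouped by what their proteins do. A gene was measured where a probe annotated to it was detected, at a detection p under 0.05, on at least 3 of 15 arrays. Of the 38 genes, 37 were measured, by 53 of the 23680 detected probes, and they were 37 of the 12302 genes measured in all. All 53 probes annotated to these genes passed that filter. TFEB had no probe in the annotation used and was not analysed here. By the probe used, 35 of the 37 genes were detected on every array, HEXA on 9 arrays and ATG13 on 12.

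MDA-MB-436 is an established human breast cancer cell line, deficient in BRCA1 per the series title. It was treated for 7 days with DMSO, with AG014699 (rucaparib, an inhibitor of PARP1) at 10 nM or at 100 nM, with LY294002, an inhibitor of PI3K, or with LY294002 added to 100 nM AG014699. The last group is called the combination here, and the concentration of LY294002 is not given in the sources used here. Each group had 3 arrays of the type Illumina HumanHT-12, all from the same cell line. Treatments are called triplicates in the labels, which name no separate cultures. P-values therefore cover only the spread among these arrays, and that spread may be technical.

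Lysosomes break down material brought in by endocytosis or by autophagy, the enclosure of cell contents in a vesicle that then fuses with the lysosome. A proton pump, the V-ATPase, acidifies the lysosome so that its hydrolases can work. Proteins of the LC3 and GABARAP family are coupled to the growing autophagosome membrane, and receptors such as SQSTM1 bind both them and the cargo. The transcription factors TFEB and TFE3 bind a sequence known as the CLEAR element in promoters of many of these genes, and the kinase complex mTORC1, which acts downstream of PI3K, keeps both factors out of the nucleus.

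RefSeq promoters on GRCh38.p14, from 250 bases before to 50 bases after the start, were given for 29 of the 38 genes. TCACGTGA, the core of the CLEAR element, was in a promoter of 4 of these 29 genes (13.8%) and of 321 of all 27305 genes with a promoter (1.18%). CACGTG, the E-box that lies within it, was in 6 of 29 (20.7%) and in 2396 of 27305 (8.77%). Both motifs read the same on both strands, and a match is a description of the letters, not a test of binding. The 4 promoters with the CLEAR core are shown from position -80 to position 20 relative to the start, 100 bases each, with both motifs in capitals. MCOLN1 and ATP6V0D1 passed the test below, while LAMP1 and CTSA, which passed in no comparison, were added for contrast after their values were seen. They lie at chr19:7522544-7522643 (plus strand, MCOLN1), chr16:67481138-67481237 (minus strand, ATP6V0D1), chr13:113297159-113297258 (plus strand, LAMP1) and chr20:45891255-45891354 (plus strand, CTSA).
MCOLN1: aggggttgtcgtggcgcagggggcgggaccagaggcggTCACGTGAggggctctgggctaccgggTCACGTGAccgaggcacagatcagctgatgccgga
ATP6V0D1: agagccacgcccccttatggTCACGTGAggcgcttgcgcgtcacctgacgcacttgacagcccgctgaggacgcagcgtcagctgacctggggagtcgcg
LAMP1: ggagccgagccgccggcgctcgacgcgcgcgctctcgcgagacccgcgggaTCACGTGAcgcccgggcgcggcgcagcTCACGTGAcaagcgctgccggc
CTSA: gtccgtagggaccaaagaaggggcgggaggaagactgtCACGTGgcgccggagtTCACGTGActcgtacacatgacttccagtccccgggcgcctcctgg

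The windows of MCOLN1 and LAMP1 hold 2 copies of the CLEAR core each. Of the other genes that passed the test at 100 nM AG014699, NPC1, CTSL, ATG12, MAP1LC3B and SQSTM1 had promoters with neither motif. The promoter of NEU1 held the E-box only, and none was given for ATP6V1A, ATP6V1B2, ATP6V1C1 and UVRAG.

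Signals are given as log2 values after background correction and normalization between arrays, and differences are differences of group means on that log2 scale, with their standard error (SE) from limma. A gene is said to have risen or fallen where its Benjamini-Hochberg adjusted p over all 12302 genes was under 0.05. Between 18971 and 20808 probes were detected per array, and the correlation over all genes was 0.979 to 0.992 within groups and 0.959 to 0.988 between them. The line's expected markers VIM, CD44 and AXL were detected on all 15 arrays, while the receptor genes ESR1 and ERBB3, low in such a line, were detected on 3 and 8. In bulk RNA, fewer cells of a type and less RNA per cell cannot be told apart.

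At 100 nM AG014699, 11 of the 37 genes rose against DMSO and 1 fell, beside 10.7% of all genes higher and 10.8% lower. The 11 were the calcium channel gene MCOLN1 at 1.71, the cholesterol transporter gene NPC1 at 1.20, MAP1LC3B at 1.01, the sialidase gene NEU1 at 0.84, the cathepsin gene CTSL at 0.77, the V-ATPase genes ATP6V1B2 at 0.67, ATP6V1C1 at 0.64 and ATP6V0D1 at 0.59, UVRAG at 0.46, SQSTM1 at 0.41 and ATG12 at 0.37. The V-ATPase gene ATP6V1A fell by 0.39. The median change was 0.18 over the 37 genes and -0.03 over all genes, and 18 of the 37 had an unadjusted p under 0.05, beside 34.3% of all genes. Without array 2 of DMSO, 7 of the 37 genes passed.

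At 10 nM only CTSL rose, by 0.63 (SE 0.15, adjusted p = 0.0407), and none of the 37 fell, beside 1.74% of all genes higher and 0.634% lower. The median change was 0.12, against -0.01 over all genes, and 8 of the 37 had an unadjusted p under 0.05, beside 12.6% of all genes. CTSB, a second cathepsin, differed by 0.64 (adjusted p = 0.101), NPC1 by 0.58 (adjusted p = 0.0685), MCOLN1 by 0.54 (adjusted p = 0.241) and NEU1 by 0.53 (adjusted p = 0.111), none of which passed. The call of CTSL was lost in 14 of 29 alternative analyses, among them those without any 1 of the 3 arrays of DMSO or of 10 nM, with adjusted p-values up to 0.151. In a limma fit over probes, the probe used did not pass, and a second CTSL probe rose by 0.80 (adjusted p = 0.0462). The third had group means of 12.10 with DMSO and 12.93 at 10 nM. Other alternatives called more genes at 10 nM: 6 with quantile normalization alone, from the deposited log2 signals or from the authors' value table, and 5 with array weights or a robust variance trend. The share of all genes called was not counted in these alternatives, so whether it rose as well is not known.

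Between the doses, 4 of the 37 genes were higher at 100 nM than at 10 nM and 0 lower, beside 4.71% of all genes higher and 4.88% lower. These were MCOLN1 by 1.17 (adjusted p = 0.00197), MAP1LC3B by 0.63 (adjusted p = 0.0268), NPC1 by 0.61 (adjusted p = 0.0211) and ATP6V0D1 by 0.55 (adjusted p = 0.0483). An unadjusted p under 0.05 was found for 11 of the 37, beside 24.5% of all genes. CTSL, by the probe used, differed between the doses by 0.14 (95% interval -0.18 to 0.47), so its difference may lie anywhere in that interval. The second CTSL probe had group means of 8.44 at 10 nM and 8.98 at 100 nM, and the third 12.93 and 12.97. With array 2 or 3 of 10 nM left out 1 gene, MCOLN1, passed, and 2 genes passed without array 1 of 100 nM. NPC1 was also lost without array 1 of 10 nM, and ATP6V0D1 in 11 of the 15 analyses that left out 1 array.

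**Figure D1:**
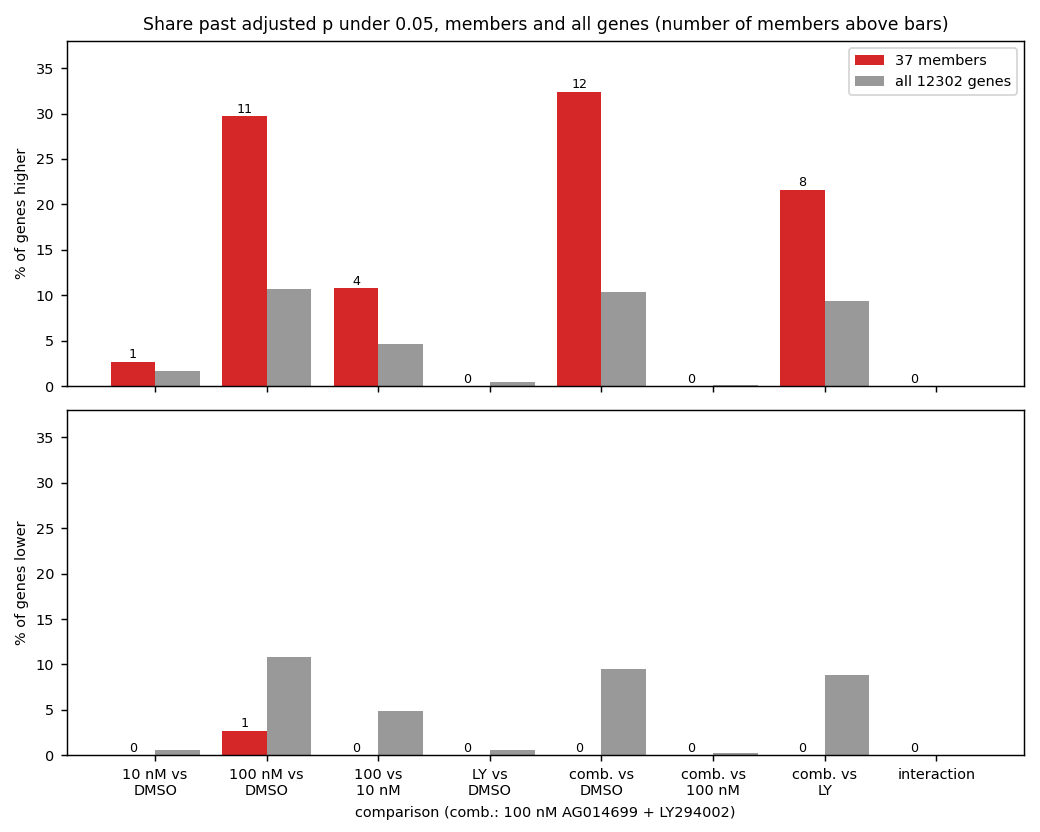
Share of the 37 lysosome and autophagy genes (red) and of all 12302 genes (grey) that were higher (top) or lower (bottom) at an adjusted p under 0.05 in each of the 8 comparisons, in percent, with the number of lysosome and autophagy genes above the bars. The red bars for higher genes stand at 29.7% for 100 nM AG014699, 32.4% for the combination and 0% for LY294002, all against DMSO.

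With LY294002 alone, 0 of the 37 genes passed by limma, beside 0.512% of all genes higher and 0.61% lower. An unadjusted p under 0.05 was reached by 3 of the 37, beside 13.4% of all genes: ULK1, the kinase that starts autophagosome formation, differed by 0.42 (adjusted p = 0.242), GABARAPL1 by 0.41 (adjusted p = 0.276) and the aspartic protease gene CTSD by 0.40 (adjusted p = 0.366). The count stayed at 0 in all 29 alternative analyses, 15 of which left out 1 array. The median change was 0.07, against -0.01 over all genes. The unadjusted 95% intervals reached 0.22 to 0.58 to either side, depending on the gene. The adjusted test is stricter, since ULK1, GABARAPL1 and CTSD had intervals that left out 0 and did not pass. Changes of that size in single genes could therefore be missed with 3 arrays a group.

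In the combination, 12 of the 37 genes rose against DMSO and 0 fell, beside 10.4% of all genes higher and 9.54% lower. They were MCOLN1 at 1.38, NPC1 at 1.11, MAP1LC3B at 1.04, CTSL at 0.82, NEU1 at 0.81, ATG13 at 0.68, ATP6V1B2 at 0.66, GABARAPL1 at 0.65, CTSB at 0.56, ULK1 at 0.52, ATP6V1C1 at 0.48 and ATG12 at 0.39. The median change was 0.28, against -0.02 over all genes, and 16 of the 37 had an unadjusted p under 0.05, beside 32.8% of all genes. With array 2 of DMSO, or array 2 or 3 of the combination, left out, 7 genes passed.

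Of the genes that rose, 8 did so both at 100 nM and in the combination, 3 at 100 nM and not in the combination, and 4 in the combination and not at 100 nM. Both comparisons use the same DMSO arrays and the same dose of AG014699. The overlap over all genes was not counted, so the 8 shared genes have no background beside them. Compared directly, combination against 100 nM AG014699, 0 of the 37 genes passed by limma, beside 0.106% of all genes higher and 0.228% lower, so none of those 7 genes was shown to differ between both groups. An unadjusted p under 0.05 was reached by 4 of the 37, beside 12.1% of all genes: ATG13 at 0.75 (adjusted p = 0.179), ULK1 at 0.52 (adjusted p = 0.185), NPC2 at 0.30 and GLA at -0.29.

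Against LY294002 alone, 8 of the 37 genes were higher in the combination and 0 lower, beside 9.42% of all genes higher and 8.86% lower. NPC1 was higher by 1.11, MCOLN1 by 1.08, CTSL by 0.84, MAP1LC3B by 0.74, NEU1 by 0.66, ATP6V1C1 by 0.63, ATP6V1B2 by 0.57 and UVRAG by 0.50. An unadjusted p under 0.05 was found for 11 of the 37, beside 31.3% of all genes. NEU1 was lost without array 2 of the combination, ATP6V1C1 without array 1 of LY294002, and UVRAG without array 2 of LY294002 or array 1 or 3 of the combination. The interaction, which subtracts the change with LY294002 alone from its change on top of 100 nM AG014699, passed for 0 of the 37 genes by limma, beside 0.00813% of all genes higher and 0% lower. Its unadjusted p was under 0.05 for 2 of the 37, beside 7.23% of all genes: MCOLN1 at -0.63 (95% interval -1.23 to -0.03, adjusted p = 0.678) and WIPI1, a protein of early autophagosomes, at 0.38 (adjusted p = 0.678).

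**Figure D2:**
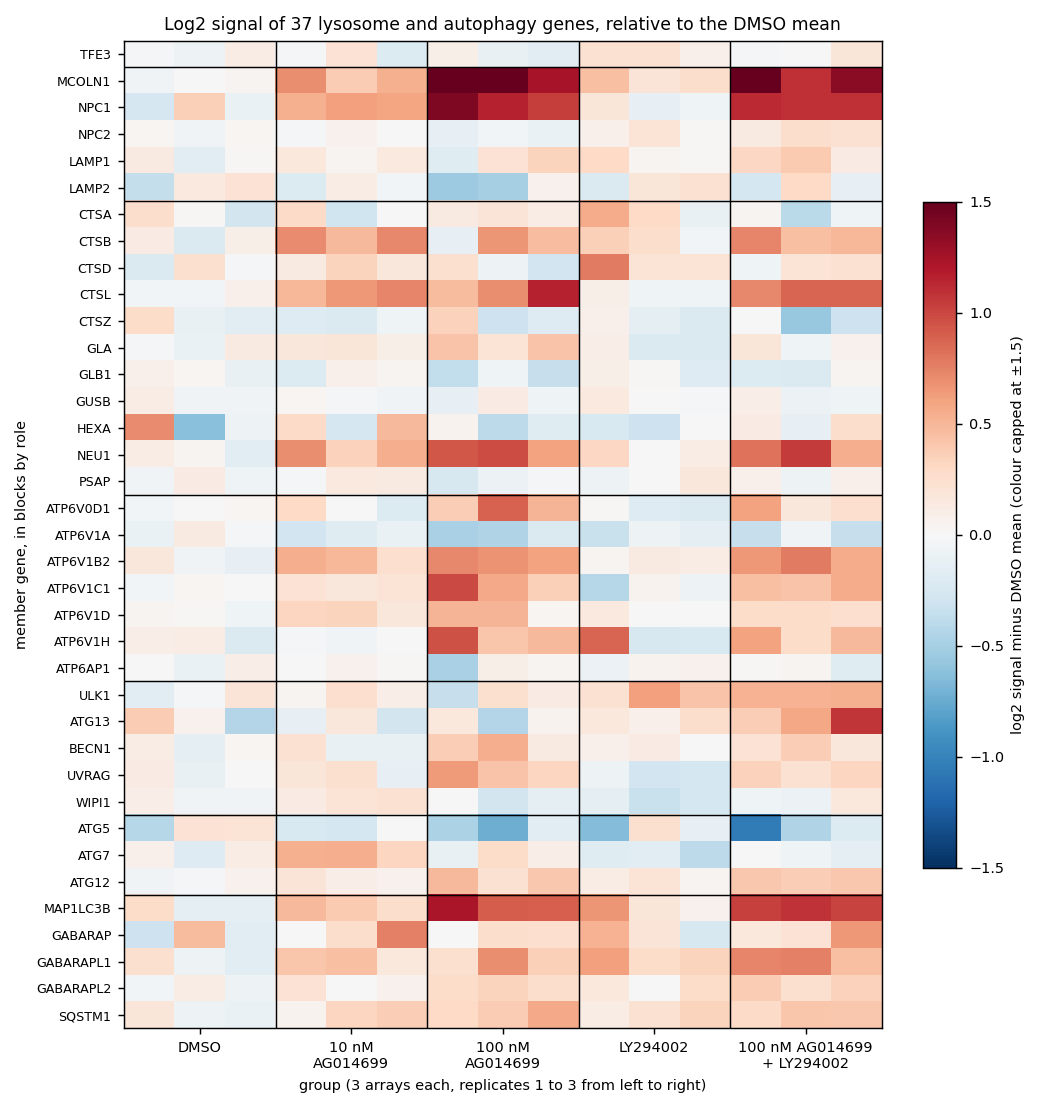
Log2 signal of each of the 37 genes on each of the 15 arrays minus the mean of the 3 DMSO arrays of that gene, with rows in blocks by role and colour capped at plus or minus 1.5. The darkest rows are MCOLN1, NPC1 and MAP1LC3B on the 6 arrays with 100 nM AG014699, while TFE3, GUSB and PSAP stay pale throughout.

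Groups were also compared by whether their arrays overlap. Of the 37 genes, 16 lay higher on all 3 arrays of 100 nM AG014699 than on all 3 of DMSO and 1 lower, beside 17.4% and 18.6% of all genes. For the combination the counts were 19 and 0, beside 19.6% and 20.5%, and for LY294002 they were 3 and 1, beside 8.93% and 9.14%. At 10 nM they were 10 and 0, beside 10.6% and 10.1%, and at 100 nM against 10 nM 11 and 4, beside 13.5% and 15%. The combination gave 3 and 2 against 100 nM, beside 9.06% and 8.57%, and 16 and 0 against LY294002, beside 17.9% and 17.7%. By the probe used, NPC1, CTSL, NEU1, ATP6V1B2 and ATP6V1C1 were higher on all 9 arrays with AG014699 than on any of the 6 without. These were 5 of 37 genes, beside 2.63% of all genes, a split looked at after the values had been seen; 0 of the 37 lay lower throughout, beside 2.14%.

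The regulator TFE3, measured by 1 probe, passed in no comparison. Its log2 signal was 8.30, 8.26 and 8.44 with DMSO, 8.41, 8.22 and 8.17 at 100 nM AG014699 and 8.55, 8.56 and 8.41 with LY294002. These ranges overlap, and the changes against DMSO were -0.07 at 100 nM, 0.18 with LY294002 and 0.05 in the combination. Array signals measure RNA and not where the TFE3 protein lies in the cell.

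Of the 5 genes for a channel, transporters and membrane proteins, MCOLN1 and NPC1 rose at 100 nM and in the combination, and NPC2, LAMP1 and LAMP2 passed in no comparison. MCOLN1 (chr19:7522624-7534009, GRCh38.p14) encodes mucolipin 1, through which calcium leaves the lysosome. Its log2 signal was 7.50, 7.56 and 7.59 with DMSO, 8.24, 7.93 and 8.09 at 10 nM, 9.31, 9.70 and 8.78 at 100 nM, 8.0, 7.74 and 7.82 with LY294002, and 9.24, 8.65 and 8.91 in the combination. All 6 arrays with 100 nM AG014699 lay above the other 9, and those with 10 nM or with LY294002 alone lay above DMSO and overlapped each other. MCOLN1 was 3.28-fold higher at 100 nM than with DMSO (log2 change 1.71, SE 0.20, adjusted p = 2.82e-05) and 2.61-fold higher in the combination (1.38, SE 0.20, adjusted p = 0.000196).

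NPC1 (chr18:23506184-23586506) encodes the membrane protein that moves cholesterol out of the lysosome, and NPC2 the soluble protein that hands cholesterol to it. The log2 signal of NPC1 was 8.94, 9.55 and 9.09 with DMSO, 9.73, 9.81 and 9.79 at 10 nM, 10.59, 10.34 and 10.23 at 100 nM, 9.37, 9.07 and 9.13 with LY294002, and 10.31, 10.29 and 10.29 in the combination. Arrays at 100 nM lay above those at 10 nM, which lay above DMSO, while LY294002 lay within the range of DMSO. The fold was 2.29 at 100 nM (log2 change 1.20, SE 0.15, adjusted p = 7.01e-05) and 2.15 in the combination (1.11, SE 0.15, adjusted p = 0.000145). NPC2 differed from DMSO by -0.09 at 100 nM and by 0.21 in the combination, and neither passed. LAMP1 and LAMP2, the abundant glycoproteins of the lysosomal membrane, differed at 100 nM by 0.12 and -0.33. The 6 LAMP2 probes ranged from -0.33 to 0.27, and none passed.

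Among the 11 genes for hydrolases and their activators, CTSL and NEU1 rose at 100 nM, and CTSB rose with both of them in the combination. The other 8, namely CTSA, CTSD, CTSZ, GLA, GLB1, GUSB, HEXA and PSAP, passed in no comparison. The median change of the 11 genes was -0.02 at 100 nM and 0.06 in the combination. CTSL (chr9:87726119-87731469) encodes cathepsin L, a cysteine protease. Its log2 signal was 12.41, 12.40 and 12.53 with DMSO, 12.95, 13.10 and 13.18 at 10 nM, 12.92, 13.14 and 13.60 at 100 nM, 12.53, 12.38 and 12.38 with LY294002, and 13.16, 13.32 and 13.32 in the combination. The 9 arrays with AG014699 lay above the other 6, and the ranges of the 2 doses overlapped. At 100 nM CTSL was 1.71-fold higher (log2 change 0.77, SE 0.15, adjusted p = 0.00204), and its 3 probes gave log2 changes of 1.33, 0.87 and 0.77, all of which passed in a fit over probes.

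NEU1 (chr6:31857659-31862821) encodes the lysosomal sialidase, which works in a complex with the CTSA and GLB1 proteins. Log2 signals of NEU1 were 9.45, 9.38 and 9.18 with DMSO, 10.03, 9.69 and 9.89 at 10 nM, 10.27, 10.31 and 9.95 at 100 nM, 9.65, 9.34 and 9.45 with LY294002, and 10.16, 10.39 and 9.89 in the combination. None of the 9 arrays with AG014699 overlapped the other 6. NEU1 was 1.79-fold higher at 100 nM (log2 change 0.84, SE 0.16, adjusted p = 0.0016) and 1.75-fold higher in the combination (0.81, SE 0.16, adjusted p = 0.00234). Its partners CTSA and GLB1 passed in no comparison, and the 2 probes of GLB1 gave changes of 0.19 and -0.26 at 100 nM, of which neither passed.

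CTSB, cathepsin B, had log2 signals of 11.03, 10.70 and 11.01 with DMSO, 10.79, 11.57 and 11.38 at 100 nM, and 11.64, 11.37 and 11.41 in the combination. At 100 nM 1 array lay within the DMSO range and the others above it, and all 3 arrays of the combination lay above it. CTSB passed in the combination at 0.56 (SE 0.19, adjusted p = 0.0467) and in 14 of 29 alternative analyses, and was lost in 11 of the 15 that left out 1 array, among them each array of DMSO and of the combination. In the fit over probes the other CTSB probe passed at 100 nM with a change of 0.59, where the probe used here had 0.33 and did not pass.

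**Figure D3:**
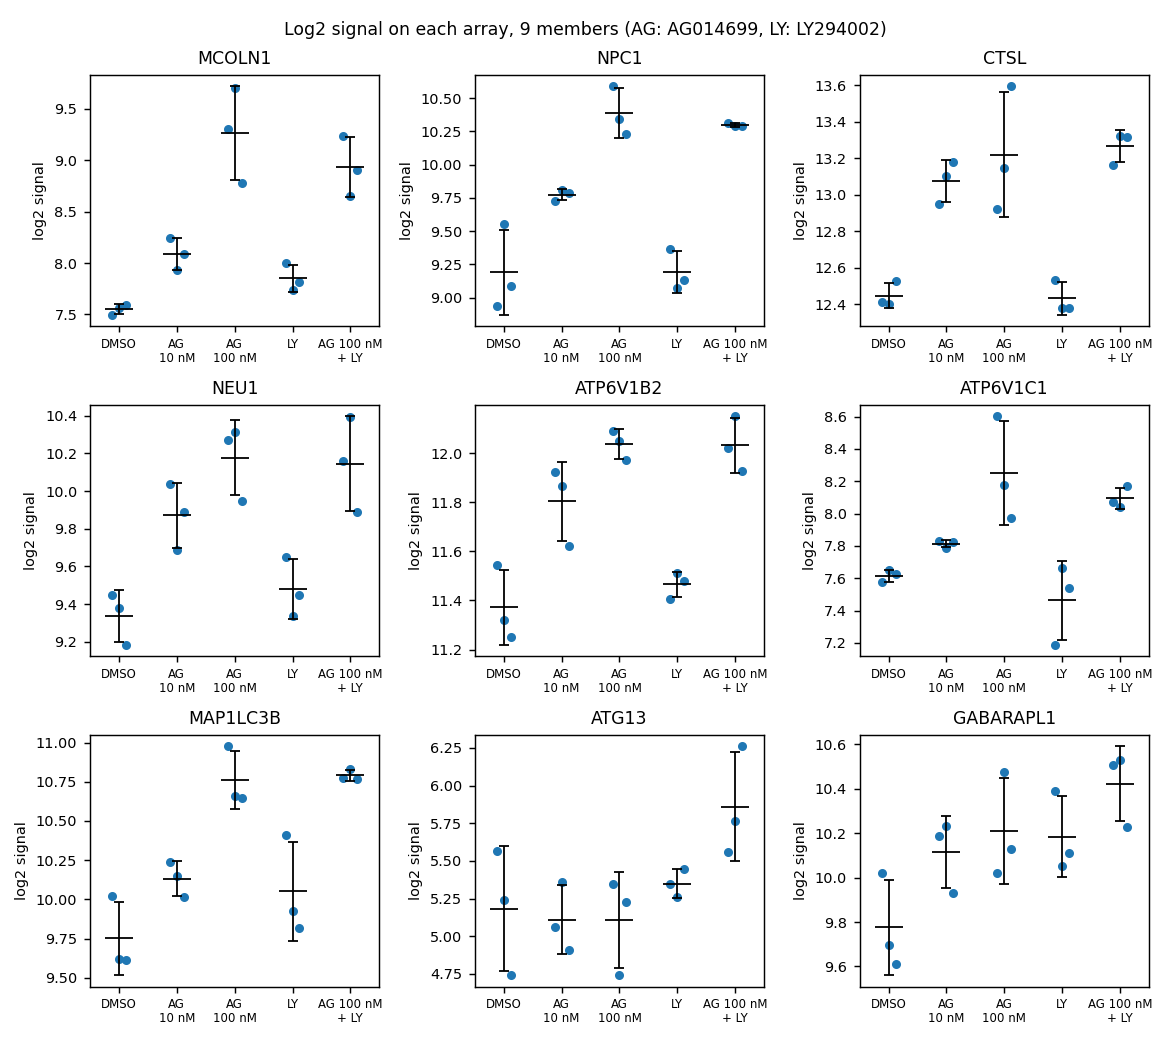
Log2 signal on each of the 15 arrays (points) with the group mean and SD (bars, 3 arrays each) for the 9 genes that passed in at least 1 comparison with an absolute log2 change of at least 0.6; each panel has its own axis. The points with AG014699 lie above those without it for NPC1, CTSL, NEU1, ATP6V1B2 and ATP6V1C1. In the ATG13 panel the combination overlaps DMSO.

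Of the 7 V-ATPase genes, 3 rose and 1 fell at 100 nM, beside 10.7% and 10.8% of all genes, and 2 rose and 0 fell in the combination, beside 10.4% and 9.54%. ATP6V1B2 and ATP6V1C1 encode subunits of the part of the pump that splits ATP, and ATP6V0D1 a subunit of the part in the membrane. The log2 signal of ATP6V1B2 was 11.54, 11.32 and 11.25 with DMSO, 11.92, 11.87 and 11.62 at 10 nM, 12.09, 12.05 and 11.97 at 100 nM, 11.41, 11.51 and 11.48 with LY294002, and 12.02, 12.15 and 11.93 in the combination. Again the 9 arrays with AG014699 lay above the other 6, and the folds were 1.59 at 100 nM (SE of the log2 change 0.12, adjusted p = 0.00139) and 1.58 in the combination (adjusted p = 0.00159).

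For ATP6V1C1 the log2 signal was 7.58, 7.65 and 7.62 with DMSO, 7.83, 7.79 and 7.82 at 10 nM, 8.60, 8.18 and 7.97 at 100 nM, 7.19, 7.66 and 7.54 with LY294002, and 8.07, 8.04 and 8.17 in the combination. By the probe used, the arrays with AG014699 lay above the rest, and the 3 arrays of 100 nM spread more widely than those of 10 nM. Its change was 0.64 at 100 nM (SE 0.16, adjusted p = 0.00937) and 0.48 in the combination (adjusted p = 0.0432), the latter passing in 16 of 29 alternative analyses and lost in 9 of the 15 that left out 1 array. The second ATP6V1C1 probe gave larger changes, 1.47 at 100 nM and 1.33 in the combination, and passed in both. On that probe, array 2 of 10 nM (6.78) lay below array 3 of LY294002 (7.18). Its SD was 0.30 at 10 nM and 0.17 at 100 nM.

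ATP6V0D1 had log2 signals of 9.54, 9.60 and 9.62 with DMSO, 9.96, 10.47 and 10.10 at 100 nM, and 10.19, 9.76 and 9.84 in the combination. It passed at 100 nM (0.59, SE 0.17, adjusted p = 0.0199) and not in the combination (0.34, adjusted p = 0.164), and was lost without array 1 or 2 of DMSO or array 2 of 100 nM. ATP6V1A, a subunit that carries the site where ATP is split, had 11.97, 12.20 and 12.04 with DMSO and 11.58, 11.61 and 11.85 at 100 nM, with no overlap. Its decrease of 0.39 at 100 nM (SE 0.13, adjusted p = 0.0479) passed in 12 of 29 alternative analyses, with adjusted p-values of 0.0127 to 0.161, and was lost in 12 of the 15 that left out 1 array. ATP6V1D, ATP6V1H and the accessory gene ATP6AP1 passed in no comparison, with changes at 100 nM of 0.35, 0.62 and -0.12.

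Of the 5 genes of initiation and nucleation, UVRAG rose at 100 nM, and ULK1 and ATG13 rose in the combination. ULK1 and ATG13 belong to the kinase complex that starts an autophagosome, while BECN1 and UVRAG belong to lipid kinase complexes that act after it. The log2 signal of ULK1 was 8.95, 9.08 and 9.30 with DMSO, 8.76, 9.35 and 9.23 at 100 nM, 9.34, 9.72 and 9.54 with LY294002, and 9.63, 9.62 and 9.65 in the combination. The 3 arrays with LY294002 alone and the 3 of the combination all lay above DMSO, and those with 100 nM overlapped it. ULK1 passed in the combination (0.52, SE 0.16, adjusted p = 0.0292) and in 23 of 29 alternative analyses, and was lost without array 1 or 2 of DMSO or any 1 array of the combination. Its 2 probes gave 0.52 and 0.53 in the combination, both of which passed, and 0.42 and 0.50 with LY294002, neither of which did.

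ATG13 lay near the detection limit, with log2 signals of 5.56, 5.24 and 4.74 with DMSO, 5.06, 5.36 and 4.91 at 10 nM, 5.34, 4.75 and 5.23 at 100 nM, 5.35, 5.26 and 5.45 with LY294002, and 5.56, 5.77 and 6.26 in the combination. The lowest array of the combination lay at the level of the highest of DMSO, so ATG13 was the 1 gene of the 12 whose groups overlapped. Its change of 0.68 in the combination (SE 0.23, adjusted p = 0.0465) passed in 10 of 27 alternative analyses, and was lost in 11 of the 15 that left out 1 array, among them arrays 2 and 3 of DMSO and of the combination. UVRAG had 7.68, 7.44 and 7.54 with DMSO and 8.19, 7.98 and 7.87 at 100 nM, a change of 0.46 (SE 0.13, adjusted p = 0.0215). That change was lost without array 2 or 3 of DMSO or array 1 of 100 nM. The second UVRAG probe, near the detection limit and detected on 7 arrays, gave 0.33 and did not pass. BECN1 and WIPI1 passed in no comparison, with changes of 0.35 and -0.14 at 100 nM.

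In the conjugation machinery, which attaches LC3 proteins to lipid, ATG12 rose and ATG5 and ATG7 passed in no comparison. Log2 signals of ATG12 were 9.93, 9.96 and 10.05 with DMSO, 10.46, 10.21 and 10.39 at 100 nM, and 10.38, 10.34 and 10.38 in the combination. All 6 arrays with 100 nM AG014699 lay above DMSO, with changes of 0.37 alone (SE 0.11, adjusted p = 0.0252) and 0.39 with LY294002 (SE 0.11, adjusted p = 0.0212). The second ATG12 probe gave -0.10 at 100 nM and did not pass there. The change at 100 nM was lost without array 1 or 2 of DMSO or array 1 or 3 of 100 nM, and that in the combination without array 1 or 2 of DMSO or any 1 array of the combination. ATG5, which the ATG12 protein is joined to, differed by -0.46 at 100 nM and -0.57 in the combination, and neither passed.

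In the LC3 and GABARAP family with the cargo receptor, all 5 genes had changes above 0 at 100 nM and in the combination, of which 2 passed in each. MAP1LC3B (chr16:87392336-87404774) encodes LC3B, the protein most used to mark autophagosomes. Its log2 signal was 10.02, 9.62 and 9.61 with DMSO, 10.24, 10.15 and 10.01 at 10 nM, 10.98, 10.66 and 10.65 at 100 nM, 10.41, 9.93 and 9.82 with LY294002, and 10.77, 10.83 and 10.77 in the combination. The 6 arrays with 100 nM AG014699 lay above the other 9, while 10 nM and LY294002 overlapped DMSO. The fold against DMSO was 2.01 at 100 nM (log2 change 1.01, SE 0.17, adjusted p = 0.000543) and 2.06 in the combination (1.04, SE 0.17, adjusted p = 0.000455).

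The log2 signal of GABARAPL1, a relative of LC3B, was 10.02, 9.70 and 9.61 with DMSO, 10.19, 10.23 and 9.93 at 10 nM, 10.02, 10.48 and 10.13 at 100 nM, 10.39, 10.05 and 10.11 with LY294002, and 10.51, 10.53 and 10.23 in the combination. Only the combination passed (0.65, SE 0.16, adjusted p = 0.0113), and without array 3 of DMSO its adjusted p was 0.0508. The 3 arrays with LY294002 alone also lay above all of DMSO, at 0.41, which did not pass. SQSTM1, the receptor p62, had 14.07, 13.82 and 13.80 with DMSO, 14.19, 14.28 and 14.46 at 100 nM, and 14.19, 14.32 and 14.30 in the combination. Both groups lay above DMSO, at 0.41 (SE 0.13, adjusted p = 0.035) and 0.37 (adjusted p = 0.0583), the first of which was lost without array 2 or 3 of DMSO or of 100 nM. GABARAP and GABARAPL2 passed in no comparison, with changes of 0.18 and 0.29 at 100 nM.

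**Figure D4:**
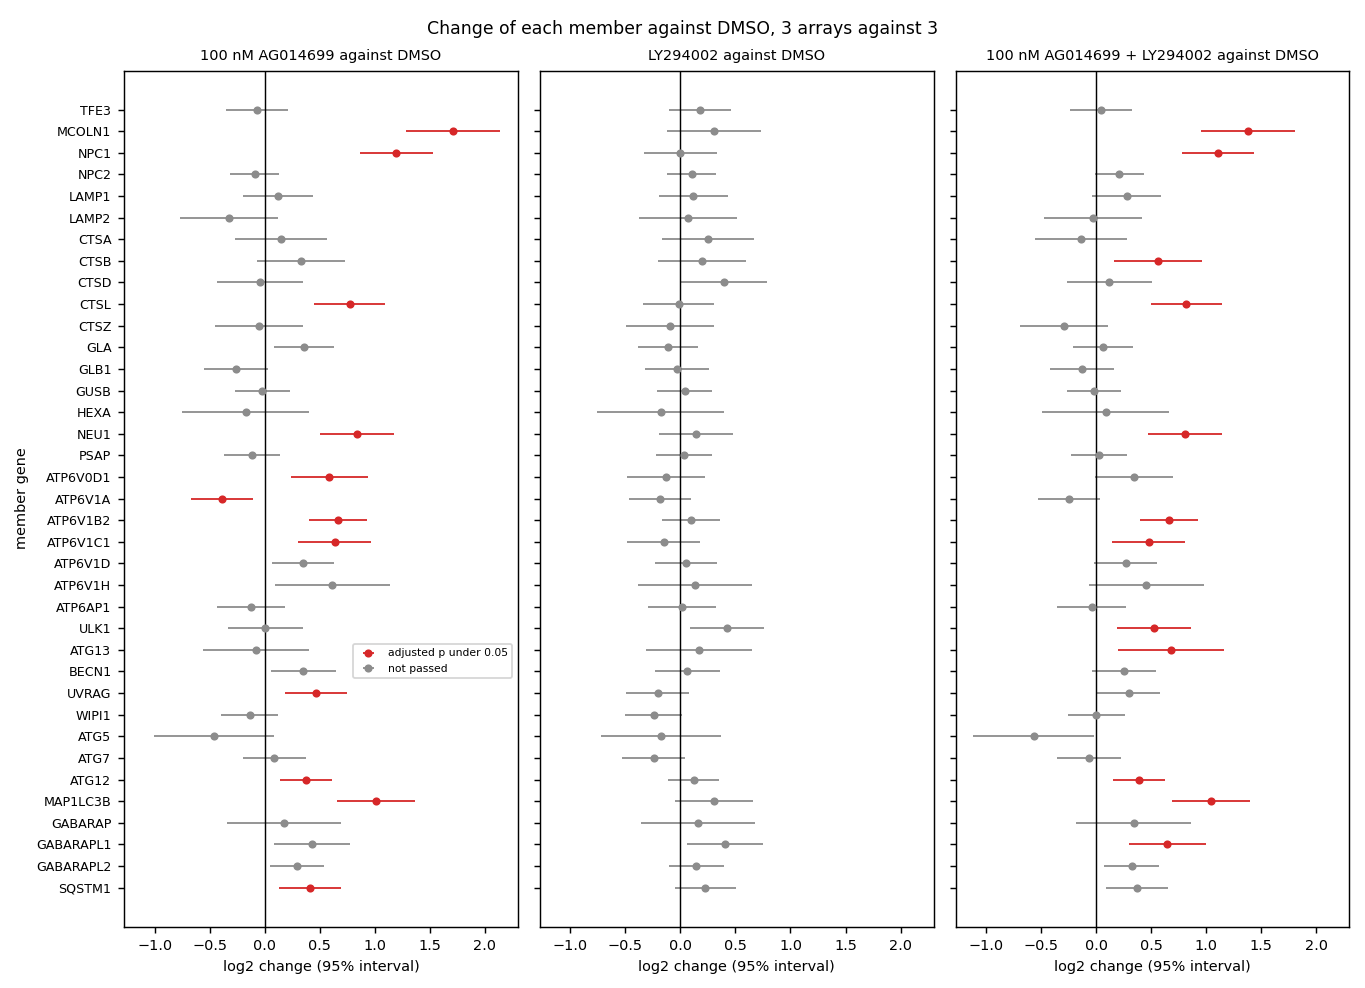
Log2 change against DMSO of each of the 37 genes at 100 nM AG014699, with LY294002 and in the combination, with 95% intervals from limma (3 arrays against 3); red marks an adjusted p under 0.05. The LY294002 panel holds no red point, and MCOLN1 has the largest change in both other panels.

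Over the 37 called values of these genes, 6 genes kept their call in all 29 alternative analyses both at 100 nM and in the combination against DMSO, namely MCOLN1, NPC1, MAP1LC3B, CTSL, NEU1 and ATP6V1B2. Across those alternatives the change of MCOLN1 at 100 nM ran from 1.35 to 1.95 and that of NPC1 from 0.97 to 1.38.

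Other genes of the pathway were counted in 5 lists, written from general knowledge but with earlier results of these data known. Of 27 measured other lysosomal enzymes and activators (32 listed), 4 rose and 6 fell at 100 nM, and 2 rose and 4 fell in the combination. All counts of these lists stand beside 10.7% of all genes higher and 10.8% lower at 100 nM, and 10.4% and 9.54% in the combination. The protease gene CTSK rose most at 100 nM (0.77, adjusted p = 0.0268) and CTSH fell most (-0.999, adjusted p = 0.00465), while in the combination TPP1 rose most (0.67) and CTSC fell most (-1.19). Their median was -0.14 at 100 nM and -0.09 in the combination, beside -0.03 and -0.02 over all genes. With LY294002 alone none of the genes of any of the 5 lists passed by limma, beside 0.512% of all genes higher and 0.61% lower. In the order in which the lists are given, 6 of 27, 2 of 18, 1 of 12, 1 of 20 and 6 of 33 genes had an unadjusted p under 0.05. The share over all genes was 13.4%.

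Of 18 lysosomal membrane and trafficking genes (24 listed), 7 rose and 2 fell at 100 nM, beside 10.7% and 10.8% of all genes, and 6 rose and 1 fell in the combination, beside 10.4% and 9.54%. PIP4P1, a protein of the lysosomal membrane, rose most in both (1.10 and 1.03), and SCARB2 fell most at 100 nM (-0.54) and LAPTM4B in the combination (-0.62). Of 12 other V-ATPase genes (16 listed), 4 rose and 1 fell at 100 nM, and 2 rose and 1 fell in the combination. ATP6V0B rose most in both (0.69 and 0.48) and ATP6V0E2 was the 1 that fell (-0.52 and -0.39).

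Of 20 genes of the MiT/TFE factors and lysosomal nutrient sensing (21 listed), 5 rose and 0 fell at 100 nM, beside 10.7% and 10.8% of all genes, and 7 rose and 1 fell in the combination, beside 10.4% and 9.54%. RRAGC, a GTPase that recruits mTORC1 to the lysosome, rose by 1.02 at 100 nM (adjusted p = 0.00014), and in the combination the amino acid sensor gene SLC38A9 rose most (0.82) and LAMTOR4 fell (-0.47). Of 33 other autophagy genes, all measured, 7 rose and 2 fell at 100 nM, and 9 rose and 0 fell in the combination. EPG5, needed for fusion with the lysosome, rose most at 100 nM (0.97) and ULK2, a relative of ULK1, fell most (-1.03), while in the combination the lipid transfer gene ATG2A rose most (1.14, adjusted p = 1.97e-05).

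RNAs that bear on RNA handling and markers of other cell types were read on the same arrays. Of 181 RNAs without a poly(A) tail, 47 rose and 0 fell at 100 nM, beside 10.7% of all genes higher and 10.8% lower, and the same numbers did in the combination, beside 10.4% and 9.54%. Their summed signal was 46112 to 48475 with DMSO, 51226 to 56138 at 10 nM, 72754 to 83712 at 100 nM, 43561 to 47788 with LY294002 and 76227 to 78846 in the combination. Among leukocyte and macrophage markers 4 were measured, AIF1, ITGAM, CD68 and CD14, while PTPRC, CD3E, CSF1R, CD163 and MARCO had no probe in the annotation used. The summed signal of the 4 was 2168 to 2342 with DMSO, 3197 to 4081 at 10 nM, 3752 to 4655 at 100 nM, 1821 to 2082 with LY294002 and 3833 to 4787 in the combination. Their median log2 signal went the other way, at 7.33 to 7.50 with DMSO and 6.53 to 7.08 at 100 nM. The 4 markers did not move together: CD68, itself a lysosomal membrane protein of the LAMP family, rose by 1.21 at 100 nM, ITGAM rose by 0.69, CD14 fell by 1.03, and AIF1 differed by -0.01 (adjusted p = 0.985). ITGAM lay near the detection limit, detected on 8 arrays with group means of 4.71 to 5.74. The part of these RNAs and markers in the changes of the lysosome and autophagy genes was not tested.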

How the data were processed

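Per the file headers, the deposited signal table held an intensity and a detection p-value for 48107 probes on 15 arrays. Its intensity values had been matched between arrays before they were deposited (medians 114 to 115) and still held background; the method is not given in the sources used here. Array 1 of 100 nM AG014699 held whole numbers only. The deposited detection p-values were taken unchanged. The authors also deposited a table of log2 values, equal to log2 intensity minus the mean of the probe to within 1e-07 over 13867 complete probes, which served as an alternative source. Per the labels, RNA was extracted with a Qiagen kit and labelled as biotinylated cRNA.

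In R 4.3.3, limma 3.58.1 was used: neqc (offset 16, with the background taken from detection p-values), a filter of detection p under 0.05 on at least 3 arrays, 1 symbol per probe from the annotation table of the array, and for each gene the probe of highest mean signal, which gave 12302 genes. Of the kept probes, 16577 carried 1 symbol and 7103 did not and were left out, 5 annotated probes had several symbols, and 2 probes with missing signals were removed. A model of all 15 arrays gave each group its mean (lmFit, then eBayes, with 10 residual degrees of freedom and a prior of 4.8). Each of its 8 comparisons was adjusted over genes by the Benjamini-Hochberg method. No slide was named in the headers. Precision is limited by the number of arrays. The procedure was tested on simulated data.

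The 38 genes and the 5 pathway lists were chosen with earlier results of these data known. Genes with values on every array were those called in at least 1 comparison with an absolute log2 change of at least 0.6, and for TFE3 and 7 called genes below that the arrays of some groups are given, chosen after their values were seen. All called members were named, and per list the called gene of largest change in each direction. Alternatives changed the background correction, the scaling, the source of values, the filter, which probe stood for a gene, which arrays were used and the model.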

Additional observations from a re-analysis of the deposited data

How the results depend on the processing

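Each of the 37 called values of the lysosome and autophagy genes was recomputed under 29 alternatives where it could be measured, 1071 values in all; 927 passed again in the same direction, 144 no longer passed and 0 reversed. The number of these genes called at 10 nM against DMSO, 1 as reported, was 6 with quantile normalization without background correction, 6 from the deposited signals with log2 only, 6 from the authors' value table (35 genes measured), 5 with array weights, 5 with a variance trend and robust fit, 3 with an offset of 50, 2 with the strict filter, 2 with probes averaged, 0 with median scaling and 0 with the arrays numbered 1 dropped. Between the doses it was 1, instead of 4, with only the compared groups in the fit. The cause was not tested. Leaving out 1 array gave 0 to 2 genes at 10 nM, 7 to 14 at 100 nM, 1 to 5 between the doses, 7 to 12 in the combination against DMSO and 7 to 9 against LY294002. The counts for LY294002 alone, the combination against 100 nM and the interaction were 0 in all alternatives run. In every alternative, the replicate block below included, only the listed genes were counted, and the share of all genes called was not.

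Replicate numbers in the titles are shared by all groups. Of 30 pairs of arrays with the same number in different groups, 21 had deviations from the group means that correlated above 0.1 (lowest -0.07, median 0.16, highest 0.32), against 4 of 60 pairs with different numbers (median -0.09). Not every same-numbered pair was above 0.1, so the numbers were not taken to pair the arrays, although 13 of 15 arrays correlated best with their own number. The model behind the reported calls therefore takes no account of a link between same-numbered arrays. With the replicate block the called counts were 1 at 10 nM, 16 at 100 nM, 4 between the doses, 0 with LY294002, 9 in the combination against DMSO, 0 against 100 nM, 8 against LY294002 and 0 for the interaction, and 34 of the 37 calls were kept; the calls of ATP6V1C1, CTSB and ATG13 in the combination against DMSO were not. A block by slide was not run, because no slide is named in the headers. Signals near background limit ATG13 and HEXA, detected on 12 and 9 arrays.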
